A study of Mus musculus with 24 samples.

Results

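The genes described here were 10 members of the BCL2 family in derivatives of EO771 (spelled E0771 in the sample labels), a mouse mammary carcinoma line from a spontaneous tumour of C57BL/6 mice. They were the survival genes Bcl2, Bcl2l1 (BCL-XL) and Mcl1, the effectors Bax and Bak1, and the BH3-only genes Bid, Bad, Bbc3 (PUMA), Bcl2l11 (BIM) and Pmaip1 (NOXA). They were taken by symbol and Ensembl identifier, and all 10 were present among the 55471 genes counted in batch 1 and among the 13915 genes counted in batch 2. Pmaip1 was chosen by its measured counts, which are among those lowered furthest in cells with both CCR7 and PDPN, so its values in those cells are given as a description and without a test. The other 9 members were listed for their place in the pathway.

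X2 cells carried a retroviral control vector with tdTomato. CCR7 cells carried the same kind of vector with mouse Ccr7 cDNA, which encodes a chemokine receptor, and were the PDPN-negative sort of that culture. CCR7-PDPN cells were sorted from the CCR7 culture for high surface podoplanin (PDPN), a glycoprotein that arose spontaneously in some cells, and X2-PDPN cells were sorted for it from the vector control. By flow cytometry the paper reports a smaller share of PDPN-positive cells in X2-PDPN than in CCR7-PDPN. No clones were picked. Polyadenylated RNA was sequenced in 24 libraries: X2, CCR7 and CCR7-PDPN in batch 1, and X2, X2-PDPN and CCR7-PDPN in batch 2, with 4 technical replicates for each derivative in each batch. Each derivative was 1 cell population, so the p-values measure the spread between libraries of that population, and a difference that arose by chance when a population was sorted cannot be told apart from an effect of CCR7 or PDPN.

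BCL2 family proteins decide whether the outer mitochondrial membrane is kept intact or opened during intrinsic apoptosis. BAX and BAK form the pores that release cytochrome c, survival proteins such as BCL2, BCL-XL and MCL1 hold them back, and BH3-only proteins bind the survival proteins or activate the effectors directly. NOXA binds MCL1 by preference and favours its degradation, BIM and PUMA bind all the main survival proteins, BAD binds BCL2 and BCL-XL, and BID is activated by caspase cleavage. The activity of many of these proteins is set by phosphorylation, cleavage and turnover, which RNA counts do not measure.

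What the members share is the BH3 stretch, and its core is printed here because it is the part through which the BH3-only members bind the others. The coding sequence of each member was searched in frame, on the coding strand, for a leucine codon, any 3 codons, a glycine, alanine or serine codon, an aspartate codon, and a codon for aspartate, glutamate, glycine or lysine. The pattern was written with these proteins in mind, so that its presence in them is no finding. It occurred once in each of 9 members, at 2 places in Pmaip1, and in 2302 of 21559 coding genes (10.7%). The 21 bases are given 5′ to 3′ on the coding strand, with the leucine and the aspartate codon in capitals, from the GENCODE transcripts of GRCm38; all lie in coding exons.
Bcl2, chr1:106712581-106712601, minus strand, exon 1 of 2: CTCcgccgggctgggGATgac
Bcl2l1, chr2:152829703-152829723, minus strand, exon 2 of 3: CTGagagaggcaggcGATgag
Mcl1, chr3:95659436-95659456, plus strand, exon 1 of 3: CTGcggcgcgtgggcGACggc
Bax, chr7:45466003-45466023, minus strand, exon 3 of 6: CTCcggcgaattggaGATgaa
Bak1, chr17:27022537-27022557, minus strand, exon 4 of 6: CTTgctctcatcggaGATgat
Bid, chr6:120897295-120897315, minus strand, exon 4 of 6: CTCgcccaaataggcGATgag
Bad, chr19:6950792-6950812, plus strand, exon 3 of 4: CTCcgaaggatgagcGATgag
Bbc3, chr7:16313773-16313793, plus strand, exon 3 of 4: CTGcggcggatggcgGACgac
Bcl2l11, chr2:128147150-128147170, plus strand, exon 3 of 4: CTGcggcggatcggaGACgag
The most alike were Bbc3 and Bcl2l11, with 17 of 21 bases in common, and the least alike were Bak1 and Bcl2l1, with 9 of 21.

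In Pmaip1 the matches, which are not printed, began at residues 27 and 78 of the 103 encoded by the annotated transcript. The other members encoded between 192 and 331 residues in the transcripts used.

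Library totals were 22275468 to 33395418 counts in batch 1 and 22788542 to 35721027 in batch 2. Values in CPM, which are read counts divided by library size, were for Ccr7 at most 0.954 in X2 and X2-PDPN libraries and at least 2716 in CCR7 and CCR7-PDPN libraries, and for Pdpn at most 0.62 in X2 and CCR7 libraries and at least 23.6 in X2-PDPN and CCR7-PDPN libraries, as the labels state. Of 6 mammary epithelial markers, Krt8 lay between 415 and 575 TPM, a value scaled by gene length and library size, whereas Epcam, Cdh1, Krt18, Krt5 and Krt14 had at most 9 counts in any library that listed them. The mesenchymal marker Vim lay between 1762 and 2382 TPM, and the leukocyte markers Ptprc, Cd3e, Adgre1 and Itgam had at most 4 counts. In RNA from whole cultures, a gene lower in all cells and a gene lost from some cells cannot be told apart.

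TPM allows levels to be compared between genes, given 1 deposited length per gene. On that scale the effectors and the survival genes Mcl1 and Bcl2l1 were the abundant members. In X2 cells of batch 2, Bak1 stood at 277 TPM, Mcl1 at 273, Bax at 243 and Bcl2l1 at 203, each a mean of 4 libraries. Bak1 and Mcl1 overlapped between libraries there, and Mcl1, Bax and Bcl2l1 did not overlap with the next in order. The BH3-only genes were lower, with Bbc3 at 53.5, Bcl2l11 at 41, Bad at 22.1, Bid at 19 and Pmaip1 at 8.87 TPM, and Bcl2 was lowest at 5.5 TPM. These neighbours did not overlap. In X2 cells of batch 1 the order was the same. The order depends on the gene lengths used, and whether they match the transcripts expressed was not tested. In CPM, Bcl2l11 stood above Bbc3 in X2 of batch 1 (84.5 against 30.7), and Bcl2 above Pmaip1 (13.4 against 6.33).

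The order differed between derivatives at 3 places. Pmaip1 stood above Bcl2 in X2 and below it in the other derivatives. Bbc3 stood above Bcl2l11 in X2 in both batches, overlapped with it in CCR7 (53.9 against 47.7 TPM), and stood below it without overlap in X2-PDPN (53.2 against 68.5 TPM) and CCR7-PDPN (35.3 against 60.1 TPM in batch 1). Mcl1 was the highest member in X2-PDPN, with 293 TPM against 251 for Bak1, and Bak1 was the highest in CCR7-PDPN, with 318 TPM against 234 for Mcl1 in batch 1.

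**Figure D1:**
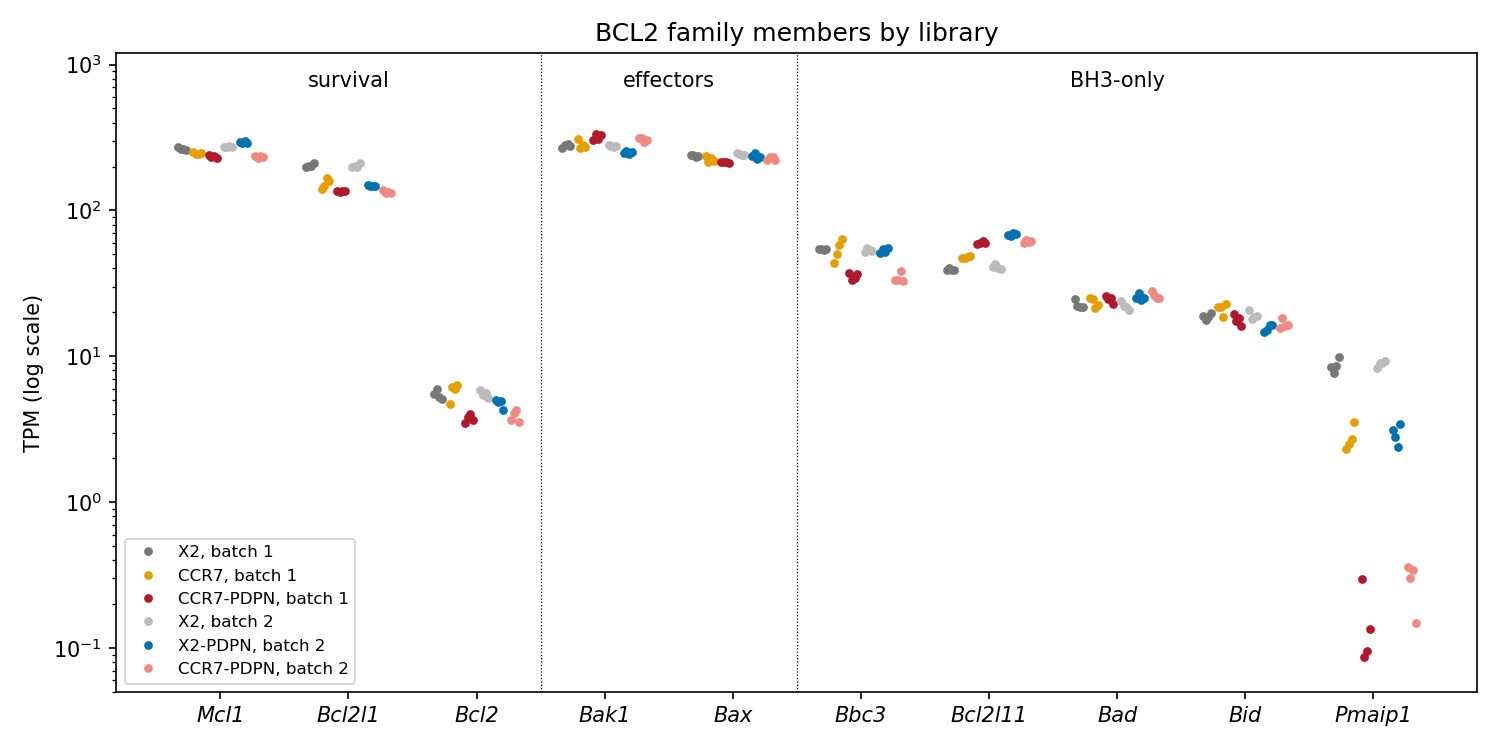
TPM of each member in each of the 24 libraries (points, log axis), coloured by derivative and batch and arranged by role. Mcl1, Bcl2l1, Bak1 and Bax lie above 100 TPM in every library, and Pmaip1 spans from 0.0867 to 9.88 TPM.

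Each comparison was made within a batch, and a gene was counted as called at an adjusted p under 0.05 in edgeR's quasi-likelihood test over all genes. Of the 9 members other than Pmaip1, 4 were called between CCR7 and X2, where 49.3% of all 13261 tested genes were. In CCR7-PDPN against CCR7 the number was 6 of 9 (41.6% of all genes), and in CCR7-PDPN against X2 it was 8 of 9 in batch 1 (60.9%) and 9 of 9 in batch 2 (64.8%). In X2-PDPN against X2 it was 7 of 9 (56.8% of 13314 genes), and in CCR7-PDPN against X2-PDPN it was 6 of 9 (63.2%). Given how many genes were called in every comparison, these shares do not set the family apart.

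The changes of the 9 were small. None passed an absolute log2 fold change of 1 in any of the 6 comparisons, in edgeR or in DESeq2, and the furthest from 0 was Bcl2l11 in X2-PDPN against X2 at 0.73. Of all tested genes, the share past both the p and the fold threshold was 6.48% in CCR7 against X2, 3.27% in CCR7-PDPN against CCR7, 9.45% and 9.63% in CCR7-PDPN against X2 in batches 1 and 2, 5.05% in X2-PDPN against X2 and 9.16% in CCR7-PDPN against X2-PDPN. The median absolute log2 fold change of the 9 was 0.08 in CCR7 against X2, beside 0.17 over all genes, and 0.25 in CCR7-PDPN against X2 in batch 2, beside 0.23.

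**Figure D2:**
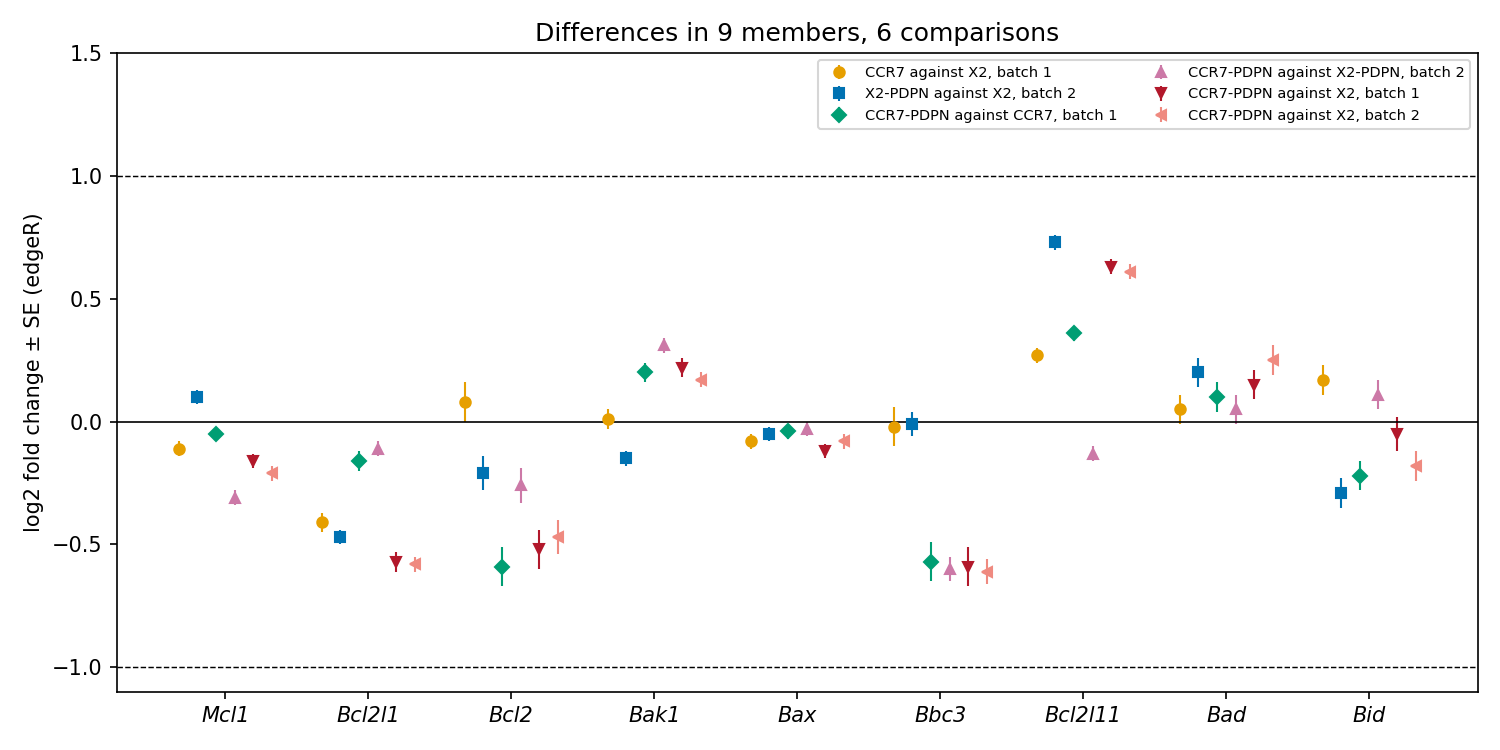
Log2 fold change ± SE (edgeR) of the 9 members other than Pmaip1 in the 6 comparisons; dashed lines mark 1 and -1. Bcl2l11 is the member furthest above 0 and Bcl2l1, Bcl2 and Bbc3 are the members furthest below it, and no point reaches a dashed line.

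Among the survival genes, Bcl2l1, which encodes the survival protein BCL-XL, was lower in every derivative than in X2. Its CPM values in batch 1 were 243, 244, 248 and 260 in X2, 174, 180, 204 and 192 in CCR7, and 168, 165, 168 and 172 in CCR7-PDPN. Batch 2 gave 246, 248, 243 and 261 for X2, then 182, 181, 176 and 181 for X2-PDPN, and 175, 162, 165 and 165 for CCR7-PDPN. All X2 libraries stood above all others, and the CCR7-PDPN libraries stood below those of the single derivative of their batch. Bcl2l1 fell by 0.41 on the log2 scale in CCR7 against X2 (SE 0.04, adjusted p = 2.3e-08) and by 0.47 in X2-PDPN against X2 (SE 0.03, adjusted p = 1.1e-18). In CCR7-PDPN against X2 it fell by 0.57 in batch 1 (SE 0.04) and by 0.58 in batch 2 (SE 0.03). The further step from a single derivative to CCR7-PDPN was -0.16 from CCR7 (SE 0.04, adjusted p = 0.004) and -0.11 from X2-PDPN (SE 0.03, adjusted p = 0.0006). The latter was -0.05 once the median log2 fold change of the tested genes within 5 Mb of Bcl2l1 was subtracted.

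Among the 10 members, Bcl2, the founding survival gene, had the lowest TPM in X2, though not the lowest CPM. Its CPM lay between 12.5 and 14.5 in X2 and between 11.5 and 15.4 in CCR7 in batch 1, and these ranges overlapped. It lay between 8.67 and 10 in CCR7-PDPN in batch 1 and between 8.95 and 10.5 in batch 2, below every X2 library. On the log2 scale Bcl2 had 0.08 in CCR7 against X2 (SE 0.08, adjusted p = 0.45) and -0.59 in CCR7-PDPN against CCR7 (SE 0.08, adjusted p = 9.8e-06). In batch 2, Bcl2 fell by 0.21 in X2-PDPN against X2 (SE 0.07, adjusted p = 0.007) and by 0.26 in CCR7-PDPN against X2-PDPN (SE 0.07, adjusted p = 0.0011).

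Mcl1, which encodes a short-lived survival protein and the main partner of NOXA, moved by at most 0.31 on the log2 scale in the 6 comparisons. Its CPM lay between 239 and 248 in X2, between 221 and 230 in CCR7 and between 213 and 220 in CCR7-PDPN in batch 1. In batch 2 it lay between 247 and 252 in X2, between 265 and 269 in X2-PDPN and between 211 and 220 in CCR7-PDPN, so that the 3 derivatives of that batch did not overlap. Mcl1 fell by 0.11 in CCR7 against X2 (SE 0.03, adjusted p = 0.002) and rose by 0.10 in X2-PDPN against X2 (SE 0.03, adjusted p = 0.00081). The median of the tested genes within 2 Mb of Mcl1 was 0.14 in that comparison, and the Mcl1 value became -0.04 once the median of the tested genes within 5 Mb was subtracted. Against X2-PDPN, Mcl1 fell by 0.31 in CCR7-PDPN (SE 0.03, adjusted p = 2.1e-14), or by 0.14 after the same subtraction.

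Of the effectors, which form the pores, Bak1 moved and Bax hardly did. Bak1 CPM was 196, 217, 200 and 218 in CCR7-PDPN in batch 1, against 174, 180, 183 and 179 in X2 and 198, 171, 179 and 173 in CCR7. The first CCR7 library lay within the range of CCR7-PDPN, and the other CCR7 libraries lay below it. In batch 2, Bak1 lay between 175 and 181 CPM in X2, between 155 and 167 in X2-PDPN and between 190 and 208 in CCR7-PDPN, with no overlap. It was called in CCR7-PDPN against X2-PDPN at a log2 fold change of 0.31 (SE 0.03, adjusted p = 8.9e-13) and in X2-PDPN against X2 at -0.15 (SE 0.03, adjusted p = 2.9e-05), and had 0.01 in CCR7 against X2 (SE 0.04, adjusted p = 0.84). Bax log2 fold changes lay between -0.12 and -0.03 in all 6 comparisons. They were called in CCR7-PDPN against X2 alone, at -0.12 in batch 1 (SE 0.03, adjusted p = 0.0045) and at -0.08 in batch 2 (SE 0.03, adjusted p = 0.029). Without X2 replicate 1, CCR7-PDPN replicate 1 or CCR7-PDPN replicate 4, the batch 2 call was lost, with adjusted p between 0.055 and 0.084, and in CCR7 against X2 Bax was called without CCR7 replicate 1 (-0.10, adjusted p = 0.0062).

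Among the BH3-only genes, Bcl2l11 rose, Bbc3 fell in CCR7-PDPN cells alone, and Bid and Bad moved by at most 0.29 on the log2 scale. Bcl2l11 encodes BIM, an activator of BAX and BAK that rises on growth factor withdrawal. Its CPM in batch 1 was 84.6, 85.4, 84.2 and 83.7 in X2, 101, 101, 103 and 103 in CCR7, and 128, 130, 133 and 133 in CCR7-PDPN. Batch 2 gave 89.1, 92, 85.3 and 86.5 for X2, then 146, 145, 147 and 149 for X2-PDPN, and 132, 136, 132 and 136 for CCR7-PDPN. No groups of a batch overlapped, and the highest derivative was CCR7-PDPN in batch 1 and X2-PDPN in batch 2. On the log2 scale Bcl2l11 rose by 0.27 in CCR7 against X2 (SE 0.03, adjusted p = 1.1e-07), 0.36 in CCR7-PDPN against CCR7 (SE 0.03, adjusted p = 3.9e-09) and 0.73 in X2-PDPN against X2 (SE 0.03, adjusted p = 7.7e-25). In CCR7-PDPN against X2-PDPN it fell by 0.13 (SE 0.03, adjusted p = 0.00013).

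Bbc3 encodes PUMA, a p53 target that binds all the main survival proteins. In batch 1 its CPM was 31.1, 30.6, 30.4 and 30.8 in X2, 25, 28.5, 32.8 and 35.6 in CCR7, and 21.2, 19.2, 19.8 and 21.3 in CCR7-PDPN. Batch 2 gave 29.7, 31.4, 30.3 and 30.4 for X2, then 29.1, 31.2, 29 and 31.4 for X2-PDPN, and 19.3, 19.3, 21.9 and 19.1 for CCR7-PDPN. All 8 CCR7-PDPN libraries stood below every other library, and the CCR7 libraries were the most spread. On the log2 scale Bbc3 had -0.02 in CCR7 against X2 (SE 0.08, adjusted p = 0.87) and -0.01 in X2-PDPN against X2 (SE 0.05, adjusted p = 0.84). In CCR7-PDPN, Bbc3 fell by 0.57 against CCR7 (SE 0.08, adjusted p = 6e-05), by 0.60 against X2-PDPN (SE 0.05, adjusted p = 2.9e-14), by 0.59 against X2 in batch 1 (SE 0.08, adjusted p = 1.7e-05) and by 0.61 in batch 2 (SE 0.05, adjusted p = 1.4e-14).

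Bid, which links the death receptor pathway to mitochondria, lay between 13.9 and 21.3 CPM in all libraries. It fell by 0.29 in X2-PDPN against X2 (SE 0.06, adjusted p = 5.9e-05) and by 0.22 in CCR7-PDPN against CCR7 (SE 0.06, adjusted p = 0.01), or by 0.39 with the median of the tested genes within 5 Mb subtracted. That subtraction took Bid from 0.11, which was not called, to -0.02 in CCR7-PDPN against X2-PDPN, and from -0.18 to -0.28 in CCR7-PDPN against X2 in batch 2. In CCR7 against X2 the log2 fold change was 0.17 (SE 0.06, adjusted p = 0.037), a call lost without X2 replicate 1, 2 or 3 or CCR7 replicate 1, 2 or 4 (adjusted p from 0.057 to 0.11), and the groups overlapped. Without X2 replicate 1, the fall in CCR7-PDPN against X2 in batch 2 (-0.18, SE 0.06, adjusted p = 0.0095) had an adjusted p of 0.058. Bid overlaps Bcl2l13 on the opposite strand, which had up to 5233 counts, and Bad overlaps Gpr137 on the opposite strand, which had up to 470. The strand setting of the counting was not given in the sources used here, so reads shared between these genes cannot be told apart.

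Bad, which binds BCL2 and BCL-XL when it is not phosphorylated, lay between 14.3 and 19.6 CPM in all libraries. It rose by 0.20 in X2-PDPN against X2 (SE 0.06, adjusted p = 0.003) and by 0.25 in CCR7-PDPN against X2 in batch 2 (SE 0.06, adjusted p = 0.00026). In batch 1 the value in CCR7-PDPN against X2 was 0.15 (SE 0.06, adjusted p = 0.049). It missed the threshold in DESeq2 (adjusted p = 0.095), and also without X2 replicate 2, 3 or 4, CCR7 replicate 4, or CCR7-PDPN replicate 1, 2 or 3, with adjusted p from 0.054 to 0.13.

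**Figure D3:**
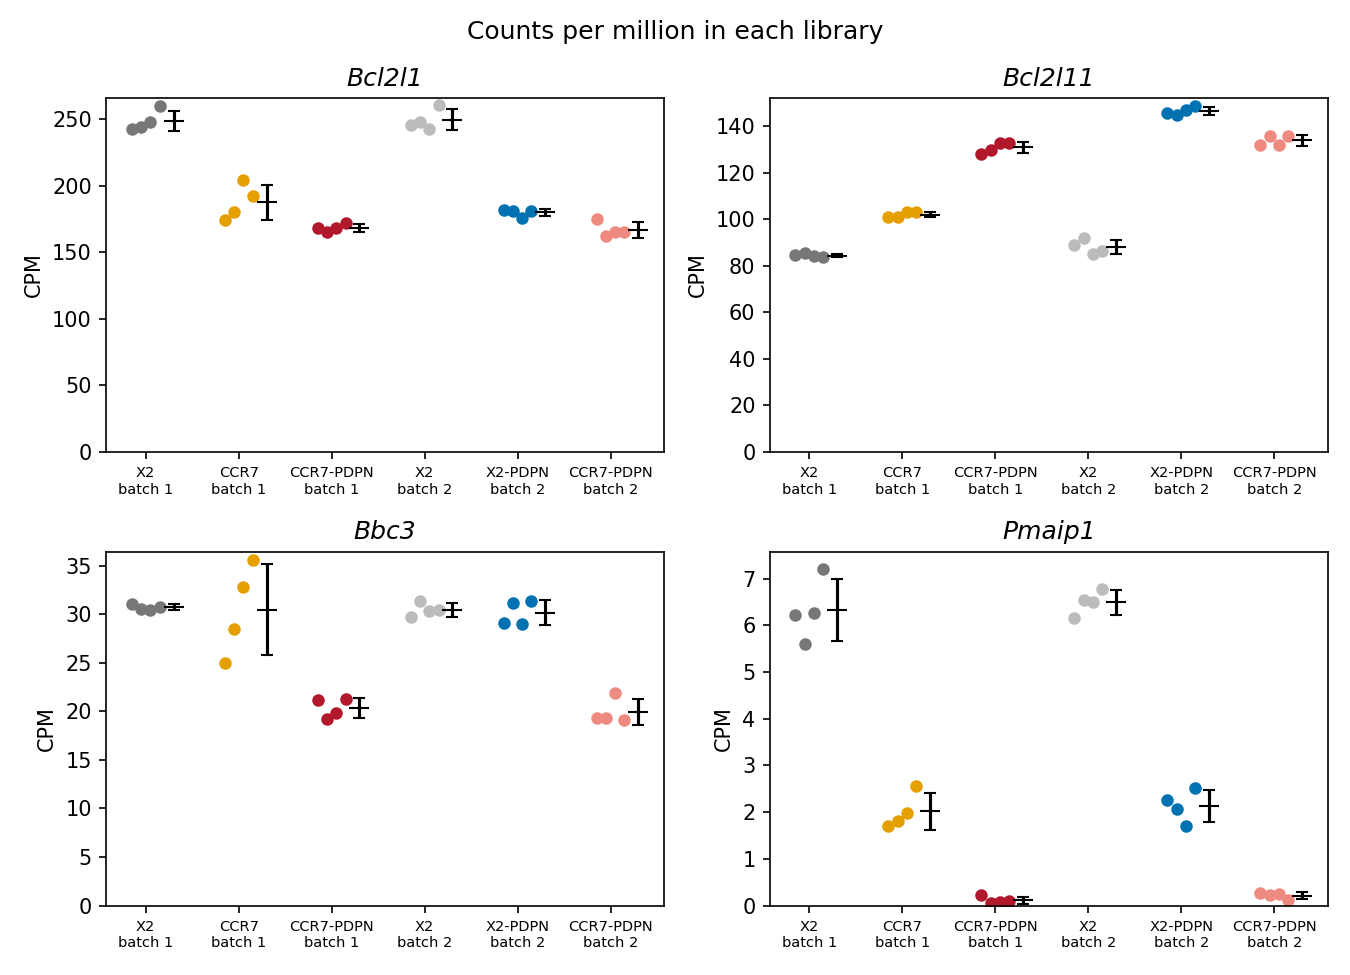
CPM of Bcl2l1, Bcl2l11, Bbc3 and Pmaip1 in each library (points) with the mean and SD of the 4 libraries (black), by derivative and batch, on linear axes from 0. Bcl2l1 is highest and Bcl2l11 lowest in X2, Bbc3 is near 30 CPM except in CCR7-PDPN (19.1 to 21.9), and Pmaip1 descends from X2 through the single derivatives to CCR7-PDPN.

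Pmaip1 encodes NOXA, a BH3-only protein made under p53, ATF4 and hypoxic signalling. X2 libraries of batch 1 held 178, 136, 198 and 212 counts (6.22, 5.6, 6.27 and 7.22 CPM), CCR7 libraries 55, 52, 66 and 57 (1.7, 1.81, 1.98 and 2.57 CPM), and CCR7-PDPN libraries 7, 2, 2 and 3 (0.221, 0.0641, 0.0704 and 0.102 CPM). In batch 2, X2 held 166, 185, 199 and 205 counts (6.15, 6.54, 6.5 and 6.79 CPM), X2-PDPN 69, 74, 51 and 68 (2.27, 2.06, 1.71 and 2.52 CPM), and CCR7-PDPN 6, 7, 8 and 3 (0.267, 0.225, 0.253 and 0.11 CPM). The 3 levels did not overlap in either batch.

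The singly altered cells had about the same Pmaip1 level, in different batches, with 2.77 ± 0.545 TPM in CCR7 and 2.93 ± 0.45 TPM in X2-PDPN (SD, n = 4), beside 8.67 ± 0.888 and 8.87 ± 0.363 TPM in X2 of the same batches. Pmaip1 fell by 1.67 on the log2 scale in CCR7 against X2 (SE 0.14, adjusted p = 1.2e-09) and by 1.61 in X2-PDPN against X2 (SE 0.12, adjusted p = 7.5e-16). Called falls past a log2 fold change of -1 were made by 3.18% and 1.55% of all genes in these comparisons. Pmaip1 was chosen by its fall in CCR7-PDPN cells, and the X2, CCR7 and X2-PDPN libraries all enter comparisons with those cells. The 2 tests are therefore not independent of the choice.

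In CCR7-PDPN cells Pmaip1 was at 0.154 ± 0.0991 TPM in batch 1 and 0.288 ± 0.0963 TPM in batch 2 (SD, n = 4). The log2 fold change was -5.72 (SE 0.23) and -4.90 (SE 0.19) against X2 of the same batch, -4.05 (SE 0.29) against CCR7 and -3.29 (SE 0.24) against X2-PDPN. In CPM, X2 stood 55.4 and 30.4 times higher than CCR7-PDPN in batches 1 and 2. The CCR7-PDPN levels rest on 14 counts over 4 libraries in batch 1 (95% exact Poisson interval 7.65 to 23.5) and 24 in batch 2 (15.4 to 35.7), intervals that cover counting error only. Over the alternatives tried, the log2 fold change against X2 ranged from -6.26 to -5.26 in batch 1 and from -5.26 to -4.62 in batch 2. The Mcl1 level was 30.8 times that of Pmaip1 in TPM in X2 in both batches, 91.1 ± 16.5 times in CCR7, 102 ± 17.4 times in X2-PDPN, and 1908 ± 859 and 916 ± 440 times in CCR7-PDPN (SD, n = 4), where the counts of Pmaip1 set the spread.

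Most genes around Pmaip1 on chromosome 18 were also lower in the cells sorted for PDPN, though by much less. Within 2 Mb of its start, 24 other genes were tested. In X2-PDPN against X2 their median log2 fold change was -0.19, beside 0.001 over all genes, and 17 of 24 were called lower, beside 28.5% of all genes. In CCR7-PDPN against CCR7 the median was -0.24 and 18 of 24 were called lower, beside 20.7% of all genes. In CCR7 against X2 the median was 0.00 and 5 of 24 were called lower, beside 25.2%. The range in CCR7-PDPN against CCR7 was from -0.72 to 0.96, beside -4.05 for Pmaip1. Pmaip1 was chosen by its fall in CCR7-PDPN cells, so a wide gap to its neighbours there was set by the choice and is no finding. Farther out, within 5 Mb, Apcdd1 and Ablim3 were singled out after their values were seen. They had -2.32 and -2.45 in CCR7 against X2, beside -1.67 for Pmaip1. In CCR7-PDPN against X2-PDPN they had -3.06 and -2.86, beside -3.29. Of 48 tested genes within 5 Mb, 11 were called lower and 15 higher in the former comparison, and 16 and 14 in the latter. Over all genes, the shares called lower and higher were 25.2% and 24% in the former, and 32% and 31.2% in the latter.

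Over all other tested genes of chromosome 18 the median stood at -0.23 in CCR7-PDPN against CCR7 (340 genes), where the medians of 19 other chromosomes lay between -0.11 and 0.14, and -0.20 in X2-PDPN against X2 (336 genes), where those lay between -0.20 and 0.21. In CCR7 against X2 it was 0.03, and in CCR7-PDPN against X2-PDPN it was 0.01. The values for CCR7-PDPN against X2 were -0.18 (batch 1) and -0.21 (batch 2), where the medians of the other chromosomes lay between -0.57 and 0.32 and between -0.58 and 0.32. The part of this shift in the Pmaip1 values was not tested. With the median of the genes within 5 Mb subtracted, the log2 fold change of Pmaip1 in X2-PDPN against X2 was -1.41, beside -1.61 without the subtraction.

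**Figure D4:**
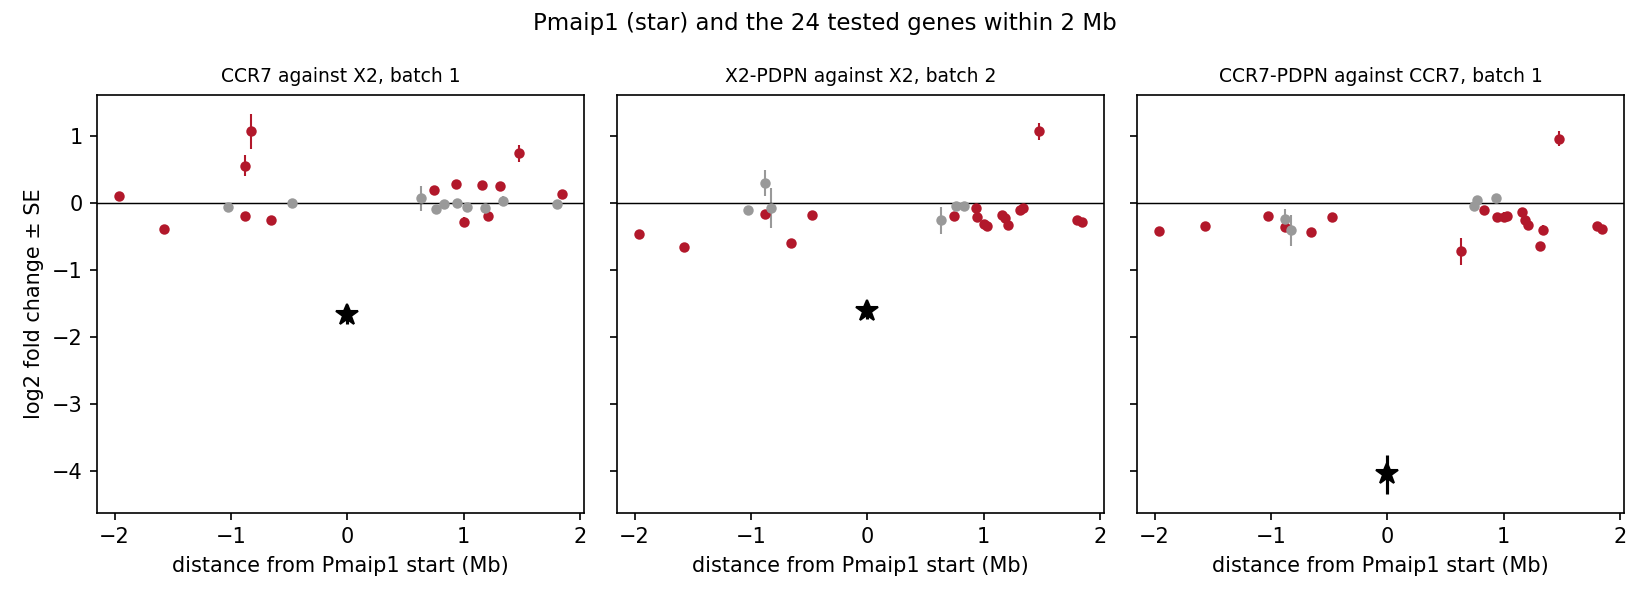
Log2 fold change ± SE of Pmaip1 (star) and of the 24 tested genes within 2 Mb (points; red where the adjusted p was under 0.05) against distance from the start of Pmaip1, in 3 comparisons. The points gather slightly below 0 in both comparisons of PDPN-high with PDPN-low cells, and Pmaip1 lies far below them in all 3. Pmaip1 was chosen by its fall in CCR7-PDPN cells, so its distance from the points in the comparison with those cells is no finding.

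Whether the difference between PDPN-high and PDPN-low cells depended on CCR7 was tested as an interaction, in which the change from X2 to X2-PDPN (batch 2) was subtracted from the change from CCR7 to CCR7-PDPN (batch 1), so that the backgrounds come from different batches. It was called for 6 of the 9 members, beside 40.8% of 13690 genes, and for none with an absolute value over 1, beside 5.44%. Bbc3 differed most, at -0.56 (SE 0.10, adjusted p = 2.7e-05), as it fell with PDPN only on the CCR7 background. Bcl2 was at -0.38 (SE 0.11, adjusted p = 0.0041), Bcl2l11 at -0.37 (SE 0.04, adjusted p = 7e-10) and Mcl1 at -0.14 (SE 0.03, adjusted p = 0.00086). Bak1 was at 0.35 (SE 0.05, adjusted p = 1.9e-06), with a rise on the CCR7 background and a fall on the vector background, and Bcl2l1 at 0.32 (SE 0.05, adjusted p = 2.5e-06). Bax had 0.01 (SE 0.05), Bid 0.08 (SE 0.09) and Bad -0.10 (SE 0.09), none of them called. For Pmaip1 the value was -2.44 (SE 0.34), given without a test.

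**Figure D5:**
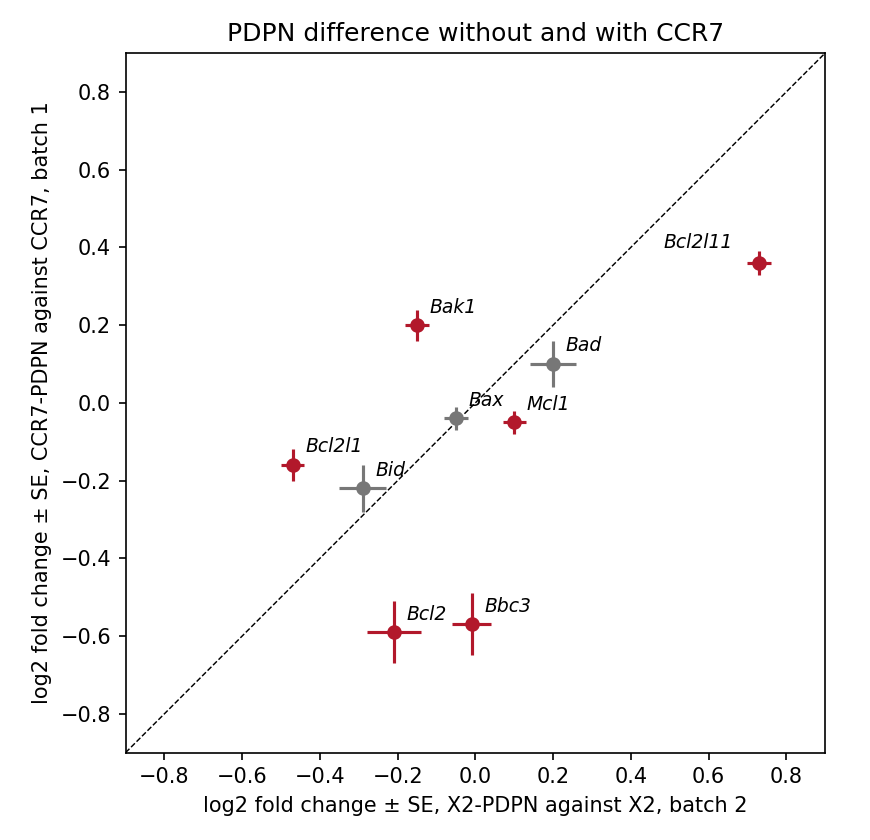
Log2 fold change ± SE between PDPN-high and PDPN-low cells on the vector background (x axis) and on the CCR7 background (y axis) for the 9 members other than Pmaip1, with red points where the interaction had an adjusted p under 0.05. Bcl2, Bbc3, Bcl2l11 and Mcl1 lie below the line of equality and Bak1 and Bcl2l1 above it.

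Summed within each role, the members moved in different directions. The 3 survival genes summed to 474 ± 3.24 TPM in X2, 405 ± 9.85 in CCR7 and 372 ± 5.14 in CCR7-PDPN in batch 1, and to 481 ± 5.29 for X2, 445 ± 4.91 for X2-PDPN and 370 ± 6.31 TPM for CCR7-PDPN in batch 2 (SD, n = 4). The 2 effectors summed to 515 ± 6.11, 505 ± 26.4 and 532 ± 14.6 TPM in the same order in batch 1, and to 519 ± 6.25, 486 ± 14 and 532 ± 10.4 TPM in batch 2. The 5 BH3-only genes among the 10 members summed to 144 ± 2.17, 149 ± 8.91 and 138 ± 2.98 TPM in batch 1. In batch 2 they summed to 145 ± 2.64, 166 ± 2.94 and 139 ± 2.39 TPM, and Pmaip1 made up less than 10 TPM of each sum. These sums leave out Bmf, a BH3-only gene that is not among the members. Mean Bmf levels in CCR7-PDPN were 28.2 (batch 1) and 30.1 TPM (batch 2), against 9.86 and 10 TPM for X2. This gap is wider than that between the X2 and CCR7-PDPN sums, and opposite in sign. The direction of a BH3-only total in CCR7-PDPN against X2 therefore depends on whether Bmf is counted. The level of Bcl2l11 over that of Bcl2l1 was 0.194 ± 0.00748 in X2, 0.312 ± 0.0195 in CCR7 and 0.445 ± 0.00781 in CCR7-PDPN in batch 1, and 0.202 ± 0.0097, 0.465 ± 0.00918 and 0.46 ± 0.0201 in X2, X2-PDPN and CCR7-PDPN in batch 2.

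Of 15 other BCL2 family genes, 7 were tested in each comparison. Bcl2a1a, Bcl2a1b, Bcl2a1d, Bcl2l10, Bik, Hrk, Bcl2l14 and Bcl2l15 had at most 15 counts in any library and were not, except that Bik passed the filter in the interaction over all 24 libraries, where its value was -0.95 (SE 0.71, adjusted p = 0.3). Bmf, a BH3-only gene, rose most: it stood at 9.86 ± 0.101 TPM in X2, 20 ± 0.714 in CCR7 and 28.2 ± 1.05 in CCR7-PDPN in batch 1, and at 10 ± 0.424, 28.2 ± 1.44 and 30.1 ± 0.604 TPM in X2, X2-PDPN and CCR7-PDPN in batch 2. On the log2 scale Bmf rose by 1.02 in CCR7 against X2 (SE 0.05, adjusted p = 1.4e-13), 1.48 in X2-PDPN against X2 (SE 0.05, adjusted p = 4.9e-28) and 0.13 in CCR7-PDPN against X2-PDPN (SE 0.04, adjusted p = 0.0077). Bcl2l2, the survival gene for BCL-W, and Bok, an effector-like gene, were singled out after their values were seen. In CCR7-PDPN against X2, Bcl2l2 fell by 0.86 in batch 1 (SE 0.05, adjusted p = 6.3e-12) and Bok rose by 0.68 (SE 0.06, adjusted p = 7.9e-09). Neighbours on the chromosome were examined only for the 10 members. Medians of whole chromosomes other than 18 lay between -0.57 and 0.32 in that comparison. The part of such shifts in the values of Bcl2l2, Bok and the other listed genes was not tested. The list had 3 called higher and 3 lower of 7 in CCR7 against X2, 4 and 1 in X2-PDPN against X2, and 3 and 3 in CCR7-PDPN against X2 in each batch. Over all genes, the shares called higher and lower were 24% and 25.2% in CCR7 against X2, 28.2% and 28.5% in X2-PDPN against X2, and 30.3% and 30.6% in CCR7-PDPN against X2 in batch 1, or 32% and 32.8% in batch 2.

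Downstream of the mitochondrial pore, 12 apoptosome and caspase genes were tested. Apaf1, the scaffold of the apoptosome, had log2 fold changes between -0.04 and 0.14, and Cycs, which encodes cytochrome c, between -0.20 and 0.17. In this list 2 were called higher and 6 lower of 12 in CCR7 against X2, 3 and 3 in X2-PDPN against X2, and 2 and 3 in CCR7-PDPN against X2 in batch 1, or 5 and 3 in batch 2, with none past a log2 fold change of 1. Over all genes, 24% were called higher and 25.2% lower in CCR7 against X2, and 28.2% and 28.5% in X2-PDPN against X2. The shares in CCR7-PDPN against X2 were 30.3% and 30.6% in batch 1, and 32% and 32.8% in batch 2. The 8 called in CCR7 against X2 became 5 without X2 replicate 2 or 3, without CCR7 replicate 2 or 4, with only the 2 groups compared and in DESeq2, and the 5 called in CCR7-PDPN against X2 in batch 1 became 8 in the fit over all 24 libraries. Of 5 inhibitor of apoptosis genes, 1 was called higher and 2 lower in CCR7 against X2, 4 and 0 in X2-PDPN against X2, and 2 and 1 in CCR7-PDPN against X2 in batch 1, or 2 and 0 in batch 2. Without CCR7 replicate 1, all 5 were called in CCR7 against X2. Birc3, a ubiquitin ligase of this family, rose by 1.17 in CCR7 against X2 (SE 0.15, adjusted p = 8.2e-07) and by 0.77 in X2-PDPN against X2 (SE 0.14, adjusted p = 5e-06), from 1.34 ± 0.256 TPM in X2 of batch 1.

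Of 11 genes for partners and turnover of BCL2 proteins, such as the VDAC channels and the ligases that act on MCL1, 2 were called higher and 4 lower in CCR7 against X2, 5 and 3 in X2-PDPN against X2, and 4 and 3 in CCR7-PDPN against X2 in each batch, with none past a log2 fold change of 1. Of 8 death receptor genes, 1 was called higher and 2 lower in CCR7 against X2, 1 and 1 in X2-PDPN against X2, and 4 and 2 in CCR7-PDPN against X2 in each batch. For both lists, the shares of all genes called higher and lower were 24% and 25.2% in CCR7 against X2. They were 28.2% and 28.5% in X2-PDPN against X2. In CCR7-PDPN against X2 they were 30.3% and 30.6% in batch 1, or 32% and 32.8% in batch 2. Fas, the death receptor, fell by 0.79 in CCR7 against X2 (SE 0.20, adjusted p = 0.0022) and by 1.89 in CCR7-PDPN against X2-PDPN (SE 0.24, adjusted p = 3e-09), and had 0.19 in X2-PDPN against X2 (SE 0.18, adjusted p = 0.39). It was a low gene, at 2.86 ± 0.466 TPM in X2 of batch 1. Tradd, an adaptor of TNF receptors, rose by 0.79 in CCR7 against X2 (SE 0.06, adjusted p = 1.2e-09) and fell by 0.31 in X2-PDPN against X2 (SE 0.05, adjusted p = 5.8e-06). Its value in CCR7-PDPN against X2-PDPN was 1.33 (SE 0.05, adjusted p = 2.5e-26). Whether the genes around Tradd on its chromosome moved with it was not tested.

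Among 9 tested transcription factors that act on BH3-only genes, 1 was called higher and 1 lower in CCR7 against X2, 3 and 4 in X2-PDPN against X2, and 2 and 6 in CCR7-PDPN against X2 in each batch. Of all genes, 24% were called higher and 25.2% lower in CCR7 against X2, and 28.2% and 28.5% in X2-PDPN against X2. The shares in CCR7-PDPN against X2 were 30.3% and 30.6% in batch 1, and 32% and 32.8% in batch 2. In CCR7 against X2 the number called ranged from 1 to 4 over the alternatives. Atf3, a stress-induced factor, fell by 1.44 in CCR7-PDPN against CCR7 (SE 0.14, adjusted p = 1.2e-05) and by 0.74 in X2-PDPN against X2 (SE 0.06, adjusted p = 1.7e-15). Ddit3 (CHOP), which acts on Bcl2l11 and Bbc3 under endoplasmic reticulum stress, fell by 1.13 (SE 0.22, adjusted p = 0.0025) and by 1.03 (SE 0.08, adjusted p = 2.9e-08) in the same comparisons. Trp53, which encodes p53, fell by 0.25 and 0.27 in CCR7-PDPN against X2 in batches 1 and 2 (adjusted p = 4.1e-05 and 8.3e-10). Hif1a, which encodes a hypoxia factor and was named after its values were seen, went the other way. It rose by 0.73 and 0.70 in the same comparisons (adjusted p = 3.5e-10 and 3.1e-26). In CCR7 against X2 it rose by 0.52 (SE 0.05, adjusted p = 4.2e-08).

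Of 14 tested p53 target genes other than the members, 3 were called higher and 4 lower in CCR7 against X2, 3 and 9 in X2-PDPN against X2, 1 and 10 in CCR7-PDPN against CCR7 (20.9% and 20.7% of all genes), and 1 and 8 in CCR7-PDPN against X2 in batch 1, or 1 and 10 in batch 2. In CCR7-PDPN against X2-PDPN they were 6 and 6 (31.2% and 32% of all genes). Of all genes, 24% and 25.2% were called higher and lower in CCR7 against X2, and 28.2% and 28.5% in X2-PDPN against X2. The shares in CCR7-PDPN against X2 were 30.3% and 30.6% in batch 1, and 32% and 32.8% in batch 2. The median log2 fold change of the 14 targets in CCR7-PDPN against X2 was -0.19 in batch 1 and -0.23 in batch 2, beside 0.002 and -0.001 over all genes. Btg2, an antiproliferative gene, fell by 1.44 in CCR7 against X2 (SE 0.20, adjusted p = 3.9e-06) and by 1.52 in CCR7-PDPN against CCR7 (SE 0.29, adjusted p = 0.0003). It was not called in X2-PDPN against X2 (-0.25, SE 0.18, adjusted p = 0.24). Gdf15, a secreted stress factor, fell by 1.40 in X2-PDPN against X2 (SE 0.05, adjusted p = 1.7e-18), and Ddb2, a DNA damage sensor, by 1.13 (SE 0.11, adjusted p = 2.1e-12). In CCR7-PDPN against X2-PDPN both rose, Gdf15 by 0.30 (SE 0.06, adjusted p = 6e-05) and Ddb2 by 0.60 (SE 0.11, adjusted p = 1.3e-05). Eda2r, a TNF receptor family gene, had 73 counts over the 4 X2 libraries, 14 in CCR7 and 1 in CCR7-PDPN in batch 1, and 85, 21 and 3 in X2, X2-PDPN and CCR7-PDPN in batch 2. The main targets Cdkn1a and Mdm2 were named after their values were seen. Cdkn1a rose by 0.17 in CCR7 against X2 (SE 0.04, adjusted p = 0.0018) and fell by 0.18 in CCR7-PDPN against CCR7 (SE 0.04, adjusted p = 0.0011), and its log2 fold change in CCR7-PDPN against X2 was -0.02 in batch 1. Mdm2 fell by 0.17 in X2-PDPN against X2 (SE 0.03, adjusted p = 4.9e-06) and rose by 0.14 in CCR7-PDPN against X2-PDPN (SE 0.03, adjusted p = 9.7e-05), and its log2 fold change in CCR7-PDPN against X2 was -0.04 in batch 1.

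The genes whose log2 CPM followed that of Pmaip1 most closely over the 24 libraries, of 10532 genes with a mean of at least 1, were C1ra (Pearson r = 0.983), Stard13 (0.982), Ghitm (0.979), Tubb3 (0.978) and Rab3gap2 (0.977). They lie on chromosomes 6, 5, 14, 8 and 1. C1ra, which encodes a complement protease, had mean CPM of 17.1 in X2, 11.6 in CCR7 and 5.9 in CCR7-PDPN in batch 1, and 17.8, 12.9 and 6.05 in X2, X2-PDPN and CCR7-PDPN in batch 2. Ghitm, which encodes a mitochondrial inner membrane protein, went from 492 in X2 to 239 in CCR7-PDPN in batch 1. The libraries share 4 derivatives, so r describes mainly the order of group means.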

How the data were processed

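Libraries were made by the authors from polyadenylated RNA with a stranded kit and sequenced as single-end reads. Per the file headers and labels, the authors deposited raw counts of reads per Ensembl gene of GRCm38 (mm10), in 1 table per batch, without normalization or pooling. The aligner and the strand setting of the counting were not given in the sources used here. The batch 2 table lists fewer genes, by a rule not given in the sources used here. Gene lengths in the deposited tables were used for TPM, computed here over all genes of each table.

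Within each batch, edgeR 4.0.16 (R 4.3.3) was fitted over 3 groups with TMM factors (0.986 to 1.02), filterByExpr and robust quasi-likelihood tests, with Benjamini-Hochberg adjustment over 13261 or 13314 genes. The interaction was fitted over all 24 libraries and 13690 genes. CPM used TMM library sizes, log2 CPM a prior count of 2. DESeq2 1.42.0, RLE factors, no filter, other sets of libraries, a replicate block, and each library left out were alternatives. Coordinates came from GENCODE M21 (GRCm38), figures from matplotlib 3.10.9.

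All members were named. In each list, up to 4 genes past an adjusted p of 0.05 and an absolute log2 fold change of 1 in most comparisons were named, with Trp53, Apaf1 and Cycs, as were the 5 genes most like Pmaip1. Lists covered other BCL2 family genes, apoptosome and caspases, inhibitor of apoptosis proteins, partners and turnover, transcription factors, p53 targets, death receptors and cell type markers. The members and lists were chosen with earlier results of these data known.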

Additional observations from a re-analysis of the deposited data

Results flagged for a closer look

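Among 60 groups of 4 libraries (10 members in 6 groups), 3 had a library set apart from the rest by its gap relative to the range of its group, and chance sets apart about 1 in 20. Mcl1 had 230 CPM in CCR7 replicate 1 of batch 1, where the other libraries lay between 221 and 222. Bad had 17.1 CPM in X2 replicate 1 of batch 1, where the others lay between 14.8 and 15. Bbc3 had 21.9 CPM in CCR7-PDPN replicate 3 of batch 2, where the others lay between 19.1 and 19.3.

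The difference between PDPN-high and PDPN-low cells differed between the CCR7 and the vector background, by the edgeR interaction test, for Bbc3 (-0.56 on the log2 scale), Bcl2 (-0.38), Bcl2l11 (-0.37), Mcl1 (-0.14), Bak1 (0.35) and Bcl2l1 (0.32). The backgrounds were sequenced in different batches, and the part of the batch was not tested beyond the additive fit over derivative and batch, which called 6 of 9 as well.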

How the results depend on the processing

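The numbers of members called stayed within 1.5 times the values above under every alternative run. With single libraries left out they ranged from 3 to 5 of 9 in CCR7 against X2, from 7 to 8 in CCR7-PDPN against X2 in batch 1 and 7 to 9 in batch 2, and from 7 to 8 in X2-PDPN against X2, and were 6 in CCR7-PDPN against CCR7, in CCR7-PDPN against X2-PDPN and in the interaction. Replicate numbers did not pair the libraries, since same-numbered libraries correlated between -0.120 and 0.106, and a replicate block gave 4 of 9 in CCR7 against X2 and changed no call of a member. Values near 0 changed sign when single libraries were left out, with ranges from -0.04 to 0.04 for Bak1 in CCR7 against X2 (-0.00 with all 24 libraries and a batch term), from -0.10 to 0.07 for Bbc3 in CCR7 against X2, from -0.03 to 0.01 for Bbc3 in X2-PDPN against X2, and from -0.02 to 0.04 for the Bax interaction. Mcl1 in X2-PDPN against X2 became -0.04 with the median within 5 Mb subtracted, and that subtraction moved 14 other values by more than the replicate spread, among them Bid in CCR7-PDPN against X2-PDPN, whose sign changed (-0.02), and Mcl1 in CCR7-PDPN against X2 (-0.08 in batch 1, -0.12 in batch 2). Bcl2 in X2-PDPN against X2 and Bcl2l11 in CCR7-PDPN against X2-PDPN became -0.13 and -0.08. Calls were lost in DESeq2 for Bid (CCR7 against X2, adjusted p = 0.061) and Bad (CCR7-PDPN against X2, batch 1, 0.095), and without the filter for the latter (0.062). The fit over all 24 libraries called Mcl1 in CCR7-PDPN against CCR7 (adjusted p = 0.025) and Bid in CCR7-PDPN against X2 of batch 1 (0.025) and against X2-PDPN (0.033). Leaving out a library also gave a call to Bcl2 in CCR7 against X2 (0.17, adjusted p = 0.032, without CCR7 replicate 1) and to Bax in X2-PDPN against X2 (-0.08, 0.037, without X2-PDPN replicate 2). The median over the whole of chromosome 18 was an alternative chosen after seeing the data. Below about 10 counts, as for Pmaip1 in CCR7-PDPN, counting error limits the fold.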
